A study of Homo sapiens with 4 samples.

Results

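The genes described here are 53 zinc finger genes that lie in clusters on chromosome 19, most of them encoding proteins with a KRAB domain followed by an array of C2H2 zinc fingers. They were chosen by name and not by a rule on measured values, though with earlier results of these data known. Each was read through the probe sets annotated to it alone. Of the 53 genes, 50 had such a probe set, with 105 probe sets among them, out of 19740 genes and 54675 probe sets on the array. ZNF714, ZNF761 and ZNF816 had none, so no signal is described for them, but their promoters are counted below. By their order along the chromosome the genes were kept in 3 groups, each named after one of its genes. The ZNF91 cluster on the short arm held 20 measured genes. On the long arm, the ZNF45 cluster held 17 and the ZNF83 cluster 13.

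The study compared lung adenocarcinoma cells with different amounts of G9a, the H3K9 methyltransferase encoded by EHMT2. CL1-0 is a human lung adenocarcinoma line and CL1-5 a more invasive subline derived from it, and the labels give the type II alveolar cell as the cellular origin of both. CL1-5 cells carried either a control shRNA or a G9a shRNA, and CL1-0 cells carried either a control vector or HA-tagged G9a. All 4 populations were stably transduced and had been selected with puromycin, and each was hybridised to 1 Affymetrix expression array. The title of the knockdown array numbers its shRNA as the second. The 2 controls therefore differ in their construct as well as in their line.

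KRAB zinc finger proteins bind DNA through their fingers and, through the KRAB domain, recruit the corepressor TRIM28, which brings in the methyltransferase SETDB1 and leads to H3K9 trimethylation. Many of them bind transposable elements: ZNF91 is known for binding SVA retrotransposons and ZNF93 for binding LINE elements. The clusters arose by tandem duplication, so neighbours are close paralogs, and in many cell types the clusters themselves are covered with H3K9 methylation over the finger-coding exons. Histone marks and binding were not analysed here.

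The promoter windows of the 3 clusters differed in sequence, and a few are shown because each cluster shared a short word that the other clusters mostly lacked. RefSeq promoter windows (GRCh38.p14, 250 bases before to 50 after the annotated start, 1 window per gene) were found for 45 of the 53 genes. In each cluster the 8-base word held by the most promoters, on either strand, was taken. The words were found in these sequences themselves, so their counts are descriptions and were not tested. In the ZNF91 cluster the word was CCAATCAG (CTGATTGG on the other strand), which holds the letters CCAAT. It was present in 19 of 19 promoters of that cluster, in 1 of 13 of the ZNF45 cluster and in 1 of 13 of the ZNF83 cluster. Among all 27305 genes with a window, 4.16% held it, and 35.7% held CCAAT (or ATTGG). The match nearest to the start began a median of 53 bases upstream, between 23 and 82. Below, capitals mark the word. ZNF91, ZNF430, ZNF626 and ZNF257 read at least 2-fold higher in the CL1-5 control than in the CL1-0 vector array, and ZNF14, at the edge of the cluster, read lower.
ZNF91, chr19:23395422-23395721, minus strand: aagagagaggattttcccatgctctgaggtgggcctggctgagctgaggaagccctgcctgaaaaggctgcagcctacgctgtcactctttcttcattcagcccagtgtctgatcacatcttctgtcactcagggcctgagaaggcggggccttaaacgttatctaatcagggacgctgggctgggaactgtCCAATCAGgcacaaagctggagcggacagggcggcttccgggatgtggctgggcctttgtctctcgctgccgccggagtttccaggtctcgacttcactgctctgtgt
ZNF430, chr19:21020407-21020706, plus strand: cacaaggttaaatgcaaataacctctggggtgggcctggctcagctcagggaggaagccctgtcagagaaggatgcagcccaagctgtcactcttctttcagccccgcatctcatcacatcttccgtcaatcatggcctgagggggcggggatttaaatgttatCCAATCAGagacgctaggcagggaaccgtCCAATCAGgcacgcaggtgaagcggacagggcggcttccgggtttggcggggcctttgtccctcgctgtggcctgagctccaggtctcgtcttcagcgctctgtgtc
ZNF626, chr19:20661522-20661821, minus strand: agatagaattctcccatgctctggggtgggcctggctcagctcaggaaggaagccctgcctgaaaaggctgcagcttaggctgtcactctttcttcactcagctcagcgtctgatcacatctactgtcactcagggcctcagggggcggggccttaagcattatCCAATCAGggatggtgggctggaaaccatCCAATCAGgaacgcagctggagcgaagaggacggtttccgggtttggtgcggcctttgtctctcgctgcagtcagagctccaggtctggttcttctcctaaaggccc
ZNF257, chr19:22052234-22052533, plus strand: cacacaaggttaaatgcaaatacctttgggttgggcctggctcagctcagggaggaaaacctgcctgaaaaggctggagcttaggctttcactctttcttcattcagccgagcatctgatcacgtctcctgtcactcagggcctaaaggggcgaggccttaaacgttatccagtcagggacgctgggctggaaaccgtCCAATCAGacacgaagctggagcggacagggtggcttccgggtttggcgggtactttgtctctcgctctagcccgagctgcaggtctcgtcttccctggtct
ZNF14, chr19:19733063-19733362, minus strand: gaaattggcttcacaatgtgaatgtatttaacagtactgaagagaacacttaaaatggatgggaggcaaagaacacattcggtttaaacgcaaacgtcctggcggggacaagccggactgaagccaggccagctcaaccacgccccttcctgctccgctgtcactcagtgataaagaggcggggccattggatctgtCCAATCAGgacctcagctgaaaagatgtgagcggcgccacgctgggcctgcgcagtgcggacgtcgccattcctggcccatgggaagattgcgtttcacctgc

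The ZNF45 cluster shared TCTGGGAA (TTCCCAGA on the other strand), held by 13 of its 13 promoters, by 0 of 19 of the ZNF91 cluster and by 1 of 13 of the ZNF83 cluster, against 2.86% of all windows. Its nearest match began a median of 49 bases upstream, from 10 to 250. ZNF229, which read lower after the knockdown, and ZNF227, which read lower in the CL1-5 control than in the vector array, are shown with that word in capitals.
ZNF229, chr19:44448423-44448722, minus strand: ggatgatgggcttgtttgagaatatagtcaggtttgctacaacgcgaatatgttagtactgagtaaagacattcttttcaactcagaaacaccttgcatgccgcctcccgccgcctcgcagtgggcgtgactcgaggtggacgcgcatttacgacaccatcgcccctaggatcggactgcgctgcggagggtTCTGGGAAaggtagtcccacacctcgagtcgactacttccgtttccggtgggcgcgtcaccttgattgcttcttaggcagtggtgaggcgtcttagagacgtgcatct
ZNF227, chr19:44212282-44212581, plus strand: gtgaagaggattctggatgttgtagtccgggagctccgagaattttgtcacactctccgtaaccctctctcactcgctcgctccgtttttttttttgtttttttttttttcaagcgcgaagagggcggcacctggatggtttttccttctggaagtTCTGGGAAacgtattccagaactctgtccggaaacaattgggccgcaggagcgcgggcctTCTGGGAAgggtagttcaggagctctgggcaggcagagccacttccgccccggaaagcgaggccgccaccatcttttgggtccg

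The ZNF83 cluster shared CCCCGCCC (GGGCGGGG on the other strand), a GC-rich word that is common in promoters. It was held by 12 of 13 promoters of that cluster, with ZNF331 the exception, by 5 of 19 of the ZNF91 cluster and by 2 of 13 of the ZNF45 cluster, against 22.9% of all windows. ZNF677 and ZNF415, which differed between the lines in opposite directions, both held it and are shown with the word in capitals.
ZNF677, chr19:53254774-53255073, minus strand: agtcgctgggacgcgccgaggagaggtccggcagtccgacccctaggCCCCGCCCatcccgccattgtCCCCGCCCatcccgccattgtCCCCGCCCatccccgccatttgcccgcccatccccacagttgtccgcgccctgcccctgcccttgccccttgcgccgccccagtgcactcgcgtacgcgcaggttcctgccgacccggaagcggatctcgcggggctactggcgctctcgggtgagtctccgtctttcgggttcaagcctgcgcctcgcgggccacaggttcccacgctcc
ZNF415, chr19:53132861-53133160, minus strand: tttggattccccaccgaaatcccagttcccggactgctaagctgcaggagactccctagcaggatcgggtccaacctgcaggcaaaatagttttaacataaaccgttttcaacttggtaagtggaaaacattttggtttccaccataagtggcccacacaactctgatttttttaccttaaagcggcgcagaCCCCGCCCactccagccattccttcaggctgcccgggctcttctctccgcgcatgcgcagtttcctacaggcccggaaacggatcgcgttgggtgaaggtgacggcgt

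The windows also differed in CpG content. ZNF91 cluster promoters had a median of 10 CpG dinucleotides (8 to 16), ZNF45 cluster promoters 19 (11 to 31) and ZNF83 cluster promoters 26 (17 to 34), beside a median of 14 over all windows. Methylation was not analysed here.

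Signals are given on the linear MAS5 scale on which they were deposited, and the 4 arrays had medians of 11.3 (CL1-5 control), 14.9 (knockdown), 11.7 (vector) and 12.3 (HA-G9a). A comparison counted the genes whose brighter array reached 12.5, the median of all values, and each gene was read by its brightest probe set. The median gene was 1.34-fold higher on the knockdown array than on its control, a log2 shift of 0.42, while 18 probe sets of the spiked hybridisation controls had a median log2 ratio of 0.11. With HA-G9a these values were -0.08 and -0.32. Ratios are therefore given relative to the median gene of each comparison, with the value as deposited beside them where the difference turned on it. The G9a label was borne out by the brightest probe set of EHMT2. It read 376 in the CL1-5 control, 28.1 after the knockdown, 420 with the vector and 862 with HA-G9a. Another read 34.2, 9.98, 38.0 and 44.2 in that order, with HA-G9a only a little above the vector. A dim one, under the filter throughout, read 2.10, 5.32, 3.58 and 7.89. Of 8 alveolar type II markers 7 were measured and 6 reached the filter on some array, with summed signals of 155, 175, 144 and 136 and no single signal over 60.2. They did not move together: in the same order NKX2-1, the lung lineage factor, read 29.6, 3.87, 31.2 and 60.2, ABCA3 16.2, 47.4, 30.2 and 21.7, LAMP3 37.4, 31.2, 9.74 and 11.0, and the surfactant genes SFTPC 33.5, 29.8, 21.3 and 6.72 and SFTPB 31.5, 40.2, 36.5 and 22.9. An epithelial list of 6 summed to 3745, 2988, 684 and 2360, carried by the keratins KRT18 and KRT8, while KRT19 was at the floor on all arrays. CDH1 (2.36, 77.6, 14.9 and 14.9) and EPCAM (6.06, 18.1, 24.6 and 12.6) were lowest in the CL1-5 control. The summed signal of 6 endothelial markers was 437 in the CL1-5 control, against 108, 62.2 and 43.7 on the other arrays, led by PECAM1 with 318 in that control. CDH5 (62.3), KDR (17.2) and ERG (35.2) were also highest there. VWF (1.97, 2.30, 10.4 and 4.22) and TEK (1.86, 2.54, 6.64 and 15.8) went the other way, under the floor in that control. The part of these markers in the results was not tested. A leukocyte list summed to between 21.1 and 42.1 and a fibroblast list to between 33.8 and 120, with the CL1-5 control lowest in both. Each group was 1 array, so no comparison within a line has a replicate check, and counts use a fixed 2-fold threshold.

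Most of the zinc finger genes gave a signal above the filter, as did most genes. On at least 1 array, 44 of the 50 reached it, beside 13953 of all 19740 genes. No detection call was recorded, so reaching the filter does not establish expression. ZNF429 and ZNF208 of the ZNF91 cluster, ZNF221, ZNF223 and ZNF233 of the ZNF45 cluster and ZNF28 of the ZNF83 cluster stayed below it on all 4. The median signal of the ZNF91 cluster was 69.7 and 71.0 on the CL1-5 arrays (control and knockdown), but 32.1 with the vector and 44.1 with HA-G9a. The ZNF45 cluster had nearly the same median on all arrays, 36.7, 34.2, 35.5 and 37.0. The ZNF83 cluster had medians of 127, 158, 97.1 and 104. The arrays of the 2 lines thus stood apart most in the ZNF91 cluster.

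**Figure D1:**
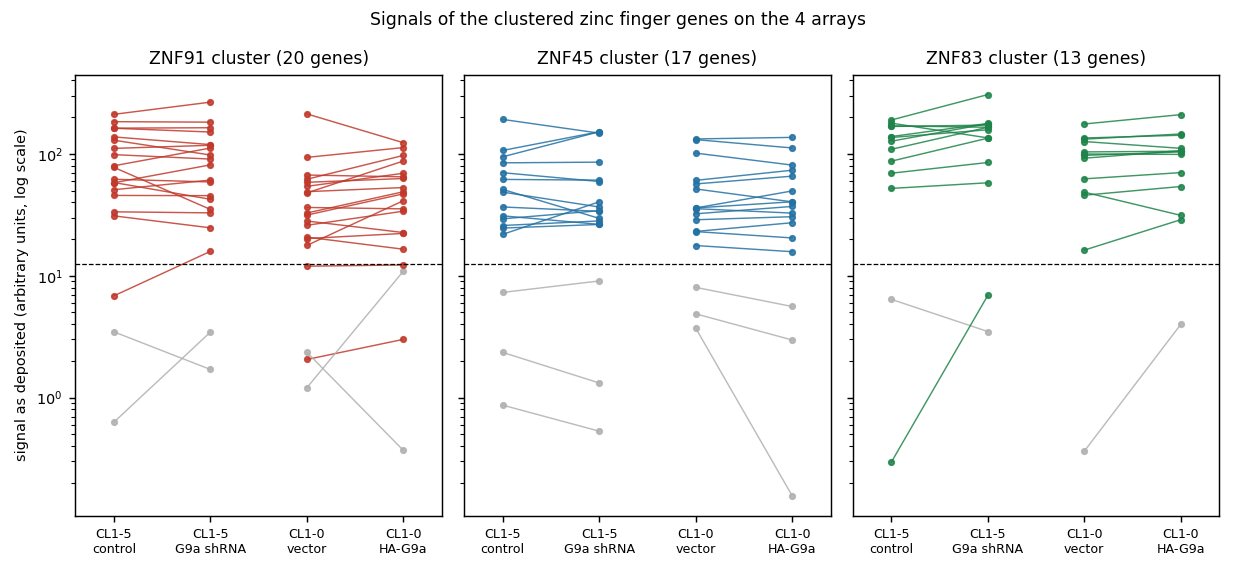
Signal of each measured gene on the 4 arrays (log axis, MAS5 units), with 1 panel for each cluster. The arrays run along the horizontal axis, and each gene is drawn without a label, its points joined within a cell line. The dashed line is the filter of 12.5 and grey marks genes under it on all arrays. In the ZNF91 panel the CL1-5 points lie above the CL1-0 points for most genes. ZNF14 is the clearest reverse case by its values, while the ZNF45 panel shows no such separation.

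More genes passed 2-fold between the control arrays than within either line. Between the CL1-5 control and the CL1-0 vector array, 12 of 43 genes past the filter read at least 2-fold higher in CL1-5 and 1 read at least 2-fold lower, relative to the median gene. Over all genes 12.6% were higher and 13.2% lower. In bulk RNA, fewer expressing cells and less RNA per cell cannot be told apart. The higher genes were 11 of 17 in the ZNF91 cluster (64.7%), 0 of 14 in the ZNF45 cluster and 1 of 12 in the ZNF83 cluster, and the lower one was ZNF415 of the ZNF83 cluster. The median log2 ratio was 1.27 in the ZNF91 cluster, with quartiles at 0.72 and 1.58, against 0.30 and 0.10 in the ZNF45 and ZNF83 clusters. Other zinc finger genes of chromosome 19 with a ZNF symbol were at least 2-fold higher in 30 of 157 cases (19.1%), with a median of 0.20. ZNF genes on other chromosomes were so in 16 of 219 (7.31%), with a median of -0.07.

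ZNF91, the binder of SVA elements, read 162 in the CL1-5 control, 164 after the knockdown, 47.8 with the vector and 87.3 with HA-G9a. Both CL1-5 arrays were above both CL1-0 arrays, and the controls differed by 1.78 on the log2 scale. Dimmer probe sets of ZNF91 past the filter had control ratios of 1.51 and 0.27. ZNF430 of the same cluster read 184, 182, 61.9 and 97.1 in the same order, a difference of 1.58 between the controls. ZNF626 read 111, 118, 25.9 and 33.9, and its control difference of 2.11 was among the largest. For ZNF626 the arrays of a line were closer together than the lines were. For ZNF91 and ZNF430 the CL1-0 arrays themselves differed, by relative log2 ratios of 0.95 and 0.73, and the gap between the knockdown and HA-G9a arrays was 0.42 for each. ZNF85 read 98.5, 90.6, 31.4 and 47.0, a difference of 1.66. Another probe set of ZNF85 read 75.2, 99.7, 52.4 and 30.1, a control ratio of 0.54, under 2-fold. ZNF93, the binder of LINE elements, read 138, 119, 58.4 and 62.8, and ZNF43 read 129, 97.8, 54.1 and 69.3, differences of 1.25 and 1.27. For ZNF430, ZNF626 and ZNF93 the other probe set past the filter had control ratios of 1.91, 2.19 and 1.46. The remaining genes past 2-fold in this cluster were ZNF253, ZNF100, ZNF492, ZNF681 and ZNF257, with differences between 1.15 and 2.14.

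The cluster was not uniform. ZNF738 read 211 in the CL1-5 control and 213 with the vector, then 265 after the knockdown and 123 with HA-G9a, a relative log2 ratio of 0.00 between the controls. ZNF14 went the other way, with 57.9 and 81.2 in CL1-5 and 93.5 and 113 in CL1-0, a control ratio of -0.68. ZNF675, also called TIZ and known as an inhibitor of TRAF6 signalling, differed by 0.49 and ZNF431 by 0.50. Every one of the 17 genes but ZNF14 had a ratio of 0.00 or more.

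**Figure D2:**
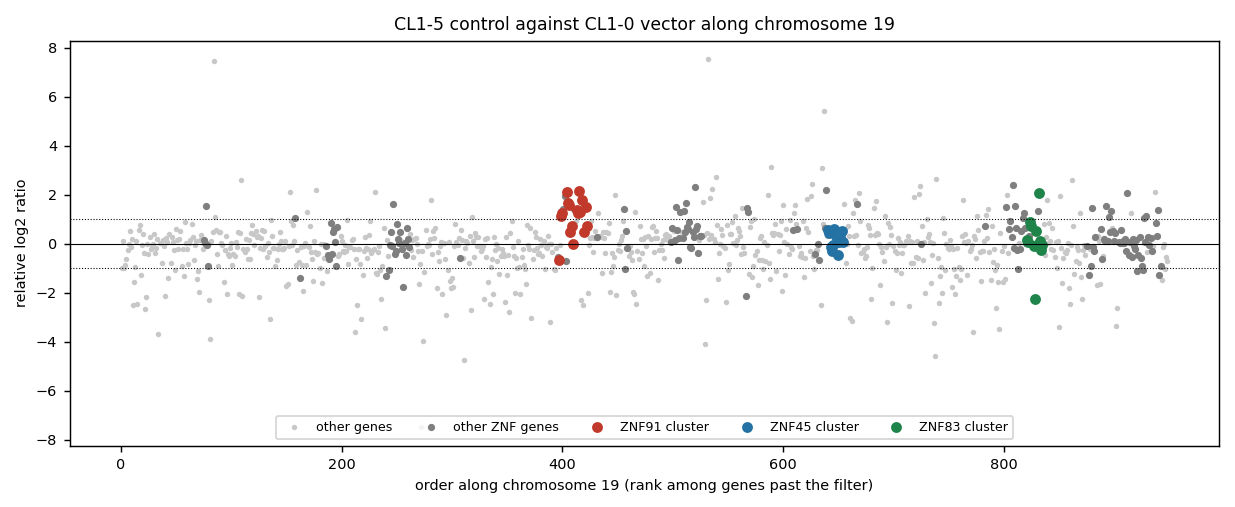
Relative log2 ratio of the CL1-5 control to the CL1-0 vector array for each gene of chromosome 19 past the filter, by its rank along the chromosome, with the genes of the 3 clusters marked. The ZNF91 cluster forms a run of points mostly above 1 (median 1.27), while the 20 nearest measured genes before it have a median of -0.26 and the 20 after it of 0.29.

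The measured genes nearest by rank to the ZNF91 cluster, at whatever distance, showed no such run of higher signals. The 20 nearest measured genes before it had a median log2 ratio of -0.26 with 0 at least 2-fold higher and 4 lower, and the 20 nearest after it had a median of 0.29 with 1 higher and 2 lower. Inside it, 5 measured genes without a ZNF symbol had a median of -0.06, with 0 higher and 2 lower. By their symbols these are long noncoding RNAs and pseudogenes (LINC00663, LINC00664, LINC01224, RPL7AP10 and IPO5P1). Of the other 4 ZNF genes inside the cluster, ZNF486, ZNF682 and ZNF493 read at least 2-fold higher in CL1-5 (1.95, 1.44 and 1.42) and the pseudogene ZNF826P lower by less than 2-fold (-0.69). Around the ZNF45 cluster the nearest 20 genes on each side held more higher genes than the cluster itself, 6 before and 5 after against 0 of 14.

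In the ZNF83 cluster 2 genes passed 2-fold between the controls on the probe set that stood for them. ZNF677, reported elsewhere as silenced by promoter methylation in lung cancers, read 189 (control) and 306 (knockdown) in CL1-5, against 45.8 with the vector and 53.9 with HA-G9a. Both CL1-5 arrays were above both CL1-0 arrays, and the controls differed by 2.06. ZNF415 read 0.295 and 6.89 in CL1-5 and 16.2 and 28.8 in CL1-0. Its control signal lay under the floor of 3.35 to which dim values were set, so it was at least 4.79-fold lower in the CL1-5 control, close to where MAS5 signals are noisy. The other 10 genes past the filter lay within 2-fold between the controls on the probe set that stood for them. For ZNF83 itself that ratio was 0.14, but another probe set read 89.8, 89.6, 30.6 and 28.3, a control ratio of 1.57. For ZNF160 it was -0.07, and another probe set had 1.02. ZNF665 read 170, 165, 176 and 210, and ZNF611 read 138, 178, 132 and 146. ZNF813 read 52.0, 57.9, 62.3 and 70.1, a control ratio of -0.25. ZNF331, an imprinted gene in some tissues, differed by -0.07 between the controls.

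In the ZNF45 cluster no gene reached 2-fold between the controls. ZNF45 read 192 in the CL1-5 control, 148 after the knockdown, 132 with the vector and 136 with HA-G9a, and its controls differed by 0.55. ZNF227 read 94.5, 152, 131 and 112, with the control below all others (-0.46). ZNF180 read 107, 152, 101 and 80.9, a control ratio of 0.09. ZNF222 read 29.3, 34.2, 36.0 and 40.4 and ZNF230 read 25.8, 28.2, 28.8 and 30.5, with ratios of -0.28 and -0.14. ZNF224, a repressor known for its action on the aldolase A gene, differed by 0.61. On the other pair of arrays ZNF229 was at least 2-fold lower in CL1-5 (-1.23).

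Single probe sets agreed on the direction in most ZNF91 cluster genes, and paralogs may share probes. In this cluster 7 of 8 genes with several probe sets past the filter had the same sign on all of them, against 6 of 8 in the ZNF83 cluster and 2 of 9 in the ZNF45 cluster. The exception was ZNF254, whose probe sets ran from -1.94 to 1.19. Some probe sets of the ZNF91 cluster reached the filter only in the CL1-5 control, which favours higher ratios. Examples are 1 of ZNF253 (64.2, against 12.3 with the vector) and 1 of ZNF626 (35.4, against 7.83). A dim probe set of ZNF91 under the filter on both arrays ran the other way (7.88 against 11.6, ratio -0.54). Probe sets whose names end in _x_at or _s_at can match several transcripts or related genes, and 25 and 16 of the 105 had such names. In the ZNF91 cluster 9 of 13 such probe sets past the filter were at least 2-fold higher with a median of 1.25, and 8 of the other 16 were so with a median of 1.10 and 1 lower. The values of single paralogs are uncertain for this reason. For ZNF253 both probe sets were higher, by 1.15 and 2.40, and the 3 of ZNF677 that counted ran from 1.12 to 3.20. Over all genes, probe sets of the same gene differed in this comparison with a pooled SD of 0.65, and those of the zinc finger genes with 0.70.

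**Figure D3:**
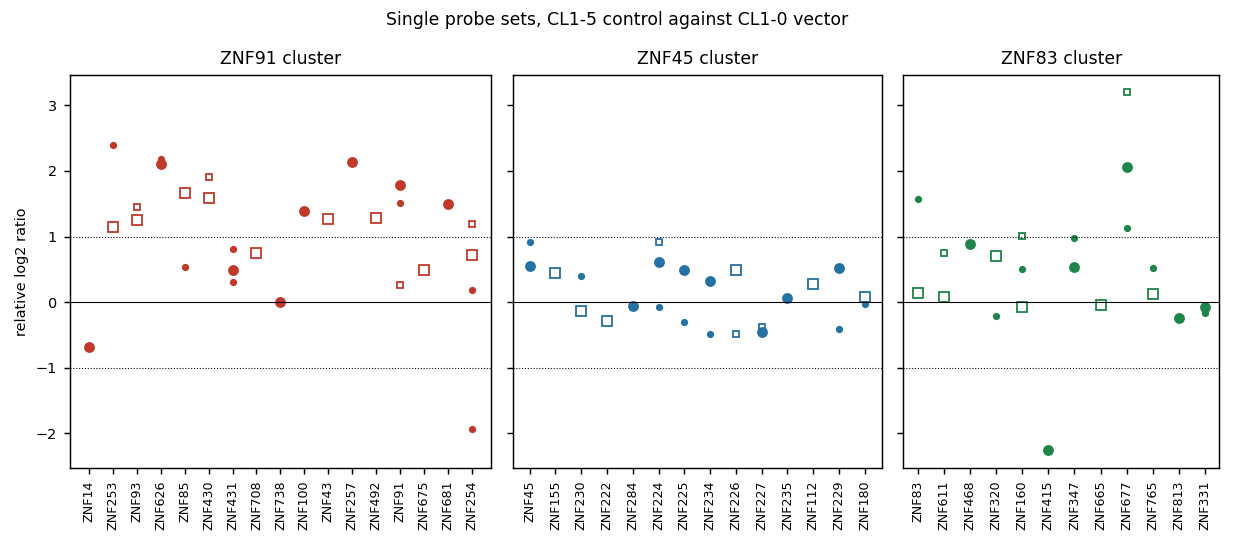
Relative log2 ratio of the CL1-5 control to the CL1-0 vector array for single probe sets of the 3 clusters, with open squares for names ending in _x_at or _s_at, filled circles for others, and larger marks for the probe set that stands for its gene. Both kinds of probe set lie mostly above 0 in the ZNF91 cluster, with medians of 1.25 and 1.10.

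The gap between the lines was smaller on the other pair of arrays. Between the knockdown and the HA-G9a array, 3 of 44 genes were at least 2-fold higher in CL1-5 and 2 lower, beside 13.0% and 13.1% of all genes. In the ZNF91 cluster 2 of 18 were higher (11.1%) and the median was 0.45. The choice of scale mattered here: as deposited, 8 of 18 were higher (44.4%) with a median of 0.94, beside 25.8% of all genes, and with arrays scaled to a common median 4 of 18 were higher with a median of 0.66. The 3 higher genes were ZNF626, ZNF90 and ZNF677 (1.31, 1.75 and 2.02), and of these ZNF626 and ZNF677 were also called higher between the controls, where ZNF90 was under the filter. ZNF257 and ZNF675 turned sign against the control pair, at -0.72 and -0.59. The control pair and this pair share no array, and the size of the line difference was thus not the same in both.

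On median-centred log2 signals, both CL1-5 arrays were above both CL1-0 arrays in 18 of 44 genes and below both in 8, beside 25.4% and 33.1% of all genes. The 18 included 13 of 18 of the ZNF91 cluster (72.2%), 2 of 14 of the ZNF45 cluster and 3 of 12 of the ZNF83 cluster. Among the 13 was ZNF90, which was dim and under the floor on both CL1-0 arrays. The 8 were ZNF14, ZNF222, ZNF227, ZNF230, ZNF160, ZNF415, ZNF665 and ZNF813. Of these, ZNF227 (94.5, 152, 131 and 112) and ZNF160 (127, 177, 135 and 142) were below only after centring. As deposited, their signal was highest on the knockdown array. These counts were not made on the deposited scale.

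With the 2 arrays of each line taken as its samples, limma called 0 of the 44 genes at a Benjamini-Hochberg adjusted p of 0.05, while 2.39% of all genes were called. At an unadjusted p under 0.05 there were 9 of 44 (7 higher and 2 lower in CL1-5), a share of 20.5% beside 23.7% of all genes. The 7 of the ZNF91 cluster were 6 higher and ZNF14 lower, and the 6 made 33.3% of that cluster beside 10.3% of all genes in that direction. Among the 6 was ZNF90, under the floor on both CL1-0 arrays. As deposited, without centring, 12 of 18 were higher at that unadjusted p (66.7%, beside 13.5% of all genes), again with 0 called after adjustment. With 1 array left out, so that the lone array of a line was assumed to vary like the other line, the 6 became 2 without the CL1-5 control (11.1%, beside 11.0% of all genes). They became 1 without the vector array (5.56%, beside 5.93%), 4 without HA-G9a (22.2%, beside 6.65%) and 8 without the knockdown array (44.4%, beside 9.98%). Smallest of the limma adjusted p-values was that of ZNF677, 0.052, with a difference of 1.97 and an SE of 0.256. ZNF626 had a difference of 1.64 with an SE of 0.285 and a limma adjusted p of 0.0752, and ZNF415 one of -2.47 with an SE of 0.438 and 0.0786. ZNF91 differed by 1.03 with an SE of 0.413, a limma adjusted p of 0.240. In this model the spread within a line includes any effect of changing G9a, with 2 residual degrees of freedom.

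Reducing G9a in CL1-5 did not go with higher signals of these genes as a group, relative to the median gene. In that measure, 0 of 43 read at least 2-fold higher after the knockdown and 2 read lower, ZNF257 and ZNF229, beside 8.13% and 7.76% of all genes. The median log2 ratio was -0.40 and 33 of 43 were below 0. As deposited, the median was 0.02, 23 of 43 were above 0, 1 gene was at least 2-fold higher (ZNF90, from 6.84 to 15.8) and 1 lower (ZNF257). The sign of the group's median therefore depends on the scaling, and on the deposited scale the group was flat while 2198 of all genes read at least 2-fold higher and 618 lower, against 1060 and 1012 relative to the median gene. By cluster the relative medians were -0.44, -0.42 and -0.13 for the ZNF91, ZNF45 and ZNF83 clusters. As deposited they were -0.02, -0.0003 and 0.29, beside 0.42 over all genes. On that scale 9 of 11 genes of the ZNF83 cluster were above 0, so the sign of its median also depends on the scaling. Other ZNF genes of chromosome 19 had a median of -0.16 and those elsewhere of -0.05.

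ZNF257 showed the clearest pattern within the lines. It read 77.5 on the CL1-5 control array, 35.0 on the knockdown array, 17.7 with the vector and 41.3 with HA-G9a. Its single probe set was higher on the array with more G9a in each line, with relative log2 ratios of -1.57 for the knockdown and 1.30 for HA-G9a, and the lines overlapped. ZNF229 read 51.1 in the CL1-5 control, 29.6 after the knockdown, 35.9 with the vector and 49.6 with HA-G9a, with ratios of -1.21 and 0.55. Another probe set of ZNF229 read 32.8, 24.8, 44.2 and 42.0. These signals are dim, and no replicate array measured them.

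With HA-G9a in CL1-0, 1 of 42 genes (ZNF257) read at least 2-fold higher and 0 lower, beside 5.46% and 3.74% of all genes. The median relative log2 ratio was 0.21, with 31 of 42 above 0, and by cluster it was 0.29, 0.15 and 0.20 for the ZNF91, ZNF45 and ZNF83 clusters. With arrays scaled to a common median, which left the median gene at -0.16, the ZNF91 cluster median was 0.06 and that of the ZNF45 cluster -0.01. ZNF91 itself read 1.94-fold higher relative to the median gene, just under the threshold. ZNF738 ran the other way, with a ratio of -0.70. Other ZNF genes of chromosome 19 had a median of 0.03 and those elsewhere of 0.06.

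**Figure D4:**
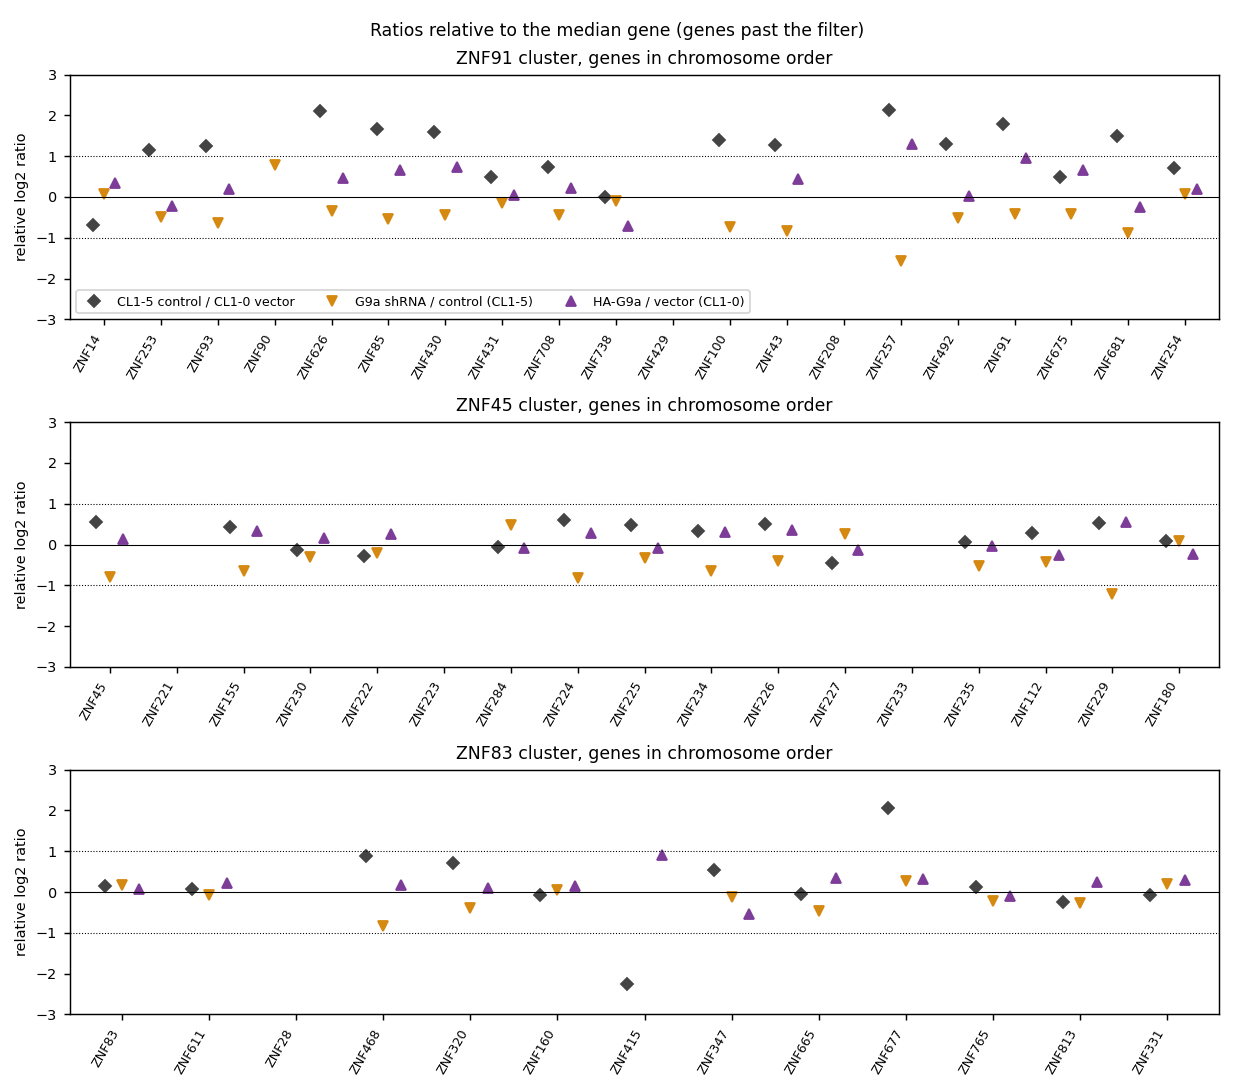
Relative log2 ratios of the measured genes in chromosome order, for the control arrays of the lines (diamonds), the knockdown against its control (down-triangles) and HA-G9a against the vector (up-triangles). Diamonds of the ZNF91 cluster reach 2.14, while most triangles of all clusters lie within 1 of 0, with ZNF257 at -1.57 and 1.30.

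The within-line comparisons use different arrays and can be set side by side, but each shares its control array with the comparison of the lines. Of 41 genes past the filter in both, 24 were lower after the knockdown and higher with HA-G9a (58.5%) and 3 ran the reverse way (7.32%), beside 26.3% and 25.5% of all genes. As deposited these were 14 (34.1%) and 9 (22.0%), beside 9.34% and 48.5% of all genes. In the ZNF91 cluster they were 11 and 0 of 16, relative to the median gene. Few of these ratios were large. With both at least 1.5-fold, ZNF257 was the single gene left (2.44%, beside 2.58% of all genes). Between probe sets of one gene the pooled SD was 0.54 for the knockdown and 0.51 for HA-G9a over all genes, which describes the technical spread of a single gene's ratio.

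**Figure D5:**
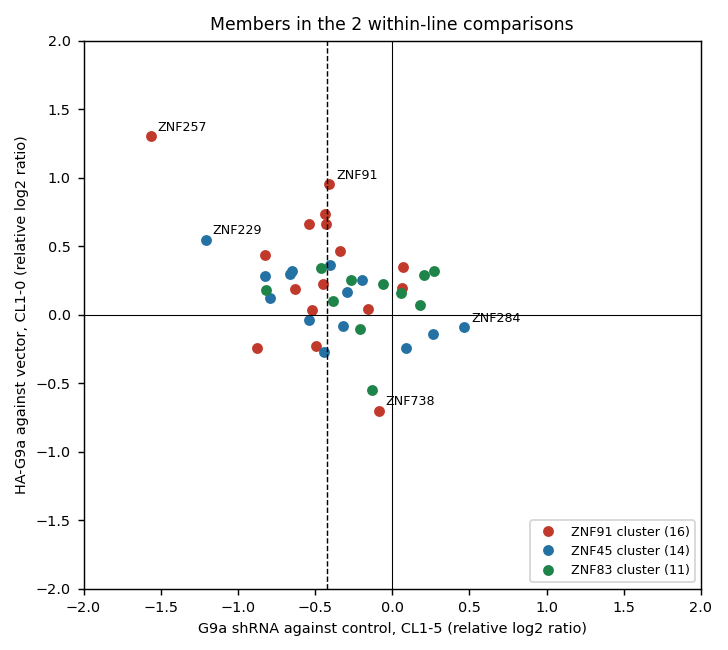
Relative log2 ratio with HA-G9a in CL1-0 (vertical axis) against that after the knockdown in CL1-5 (horizontal axis) for each gene past the filter in both, by cluster. Most points lie in the quadrant lower after the knockdown and higher with HA-G9a (24 of 41); the dashed vertical line shows where the knockdown ratio as deposited is 0.

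A second limma model with line and G9a level set the arrays with more G9a against those with less. It called 0 of the 44 genes, and 0 of all genes, at an adjusted p of 0.05. At an unadjusted p under 0.05 it gave 1 of 44, beside 4.24% of all genes. That gene was ZNF257, with a difference of 1.42, an SE of 0.261, p of 0.00929 and an adjusted p of 0.957. The model left 1 residual degree of freedom.

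The partners of these proteins were measured on the same arrays. TRIM28, the KRAB corepressor, read 846 and 924 in CL1-5 and 866 and 940 in CL1-0, with relative log2 ratios of -0.29 after the knockdown and 0.20 with HA-G9a. SETDB1 read 101, 111, 118 and 102. Of the 13 genes listed for the corepressor complex, all 13 lay within 2-fold in both within-line comparisons, as did all 4 of the HUSH complex with MORC2. Of 8 H3K9 methyltransferases and G9a partners, 3 were at least 2-fold lower after the knockdown, namely EHMT2, SETDB2 (52.6 to 27.4, ratio -1.36) and ZNF644 (-1.12), and EHMT2 alone was higher with HA-G9a. Of 10 H3K9 demethylases and 9 genes of DNA methylation, 0 passed 2-fold in either. DNMT3B, a de novo DNA methyltransferase, differed between the lines: 132 and 132 in CL1-5 against 377 and 373 in CL1-0.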

How the data were processed

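Total RNA of 4 populations was hybridised to Affymetrix arrays, 1 array per group. The deposited values are MAS5 intensities on a linear scale, per the submitters' processing notes; no scaling target or detection call is recorded in the sources used here. Probe sets were named through the platform annotation with symbols updated against RefSeq (GRCh38.p14): 41097 had 1 symbol, 1801 several and 11777 were not listed. The 59 probe sets of Y-linked and 1 X-linked transcript were left out. Of a gene's single-gene probe sets, the one brightest on average over the arrays stood for it. Signals were floored at 3.35 (25th percentile), log2-transformed, filtered at 12.5 (median) and centred on the median gene; a stricter filter used 84.2 (75th percentile). Where an array was at the floor, a ratio is a bound.

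Counts used 2-fold with no test. Lines (2 arrays each) and G9a level were tested with limma 3.58.1 (R 4.3.3; lmFit, eBayes, Benjamini-Hochberg at 0.05) over 13953 genes, which was checked on simulated data. The arrays of a line are not replicates, so p-values measure only the spread between these arrays, and the number of arrays limits the precision. Other steps used Python 3.11.15, pandas 2.3.3 and NumPy 2.4.6.

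The genes and lists were chosen with earlier results of these data known. Ratios with signals on every array were given by rule for genes past 2-fold within a line, genes opposite at 1.5-fold, the 3 brightest of each cluster and the 6 with the largest control difference per direction. Of other lists up to 4 genes could be named, and EHMT2 and TRIM28 always. Other genes named here were chosen after their values were seen. Alternatives covered scaling, centring, floor, filter, probe set choice and arrays left out.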

Additional observations from a re-analysis of the deposited data

How the results depend on the processing

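The median of the ZNF91 cluster between the lines stayed above 0 under each alternative run, though on the perturbed arrays ZNF257 and ZNF675 turned sign. The count of genes at least 2-fold higher moved from 11 of 17 (64.7%, beside 12.6% of all genes). With the filter at the 75th percentile it was 7 of 9 (77.8%, beside 10.8% when centred as in the main run). These 7 reached that filter in the CL1-5 control and not on the vector array. The filter thus favours such genes, and this share is no check on the count. Without _x_at and _s_at probe sets it was 6, with fewer genes counted. On the perturbed arrays it was 2 of 18 (11.1%, beside 13.0%), where the median was 0.45 in place of 1.27. After the knockdown the median of -0.40 turned to 0.019 without centring, with 1 gene higher and 1 lower. The count lower after the knockdown, 2, was 0 at the 75th percentile and 1 with the median of probe sets. The count higher with HA-G9a, 1, was 2 without a filter and 0 at the 75th percentile. The count lower between the controls, 1, was 0 with the floor at the median or the filter at the 75th percentile and 2 without _x_at and _s_at probe sets. limma calls between the lines, 0 of 44, were 1 with arrays scaled to a common median (216 higher and 216 lower of all 13906 genes) or quantile-normalized (152 and 210). They were 2 with the floor at the median (348 and 504 of 13953) or the filter at the 75th percentile (2 of 24, beside 266 and 309 of 8884). Leaving out each array left a line with a lone array, assumed to vary like the other line, and gave 0 calls among these genes; in 3 of those 4 fits 0 of all genes were called, so this says nothing on stability. At an unadjusted p under 0.05 there were 4 of 44 without the CL1-5 control (beside 3491 of all 13953 genes), 4 without the vector (1877), 11 without the knockdown (3356) and 6 without HA-G9a (2010). Causes were not tested. Of 497 values of single genes under alternatives, 8 moved beyond the probe set spread. No paired analysis was possible because each group was 1 array and replicate numbers pair nothing. A model with line and G9a arm together called 0 genes, and 0 of all genes, between the lines.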

Other observations

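A related set of zinc finger genes lies on chromosome 7, and 8 of them were looked at after the values of the chromosome 19 clusters had been seen. Between the controls, ZNF138 read 87.1 in CL1-5 and 37.4 with the vector, a relative log2 ratio of 1.24, and was the single gene of the 8 past 2-fold. ZNF92, ZNF273, ZNF736, ZNF107 and ZNF117 had ratios of 0.95, 0.94, 0.63, 0.51 and 0.24, and ZNF680 and ZNF713 ratios of -0.51 and -0.64. After the knockdown, ZNF138 read 46.8 and ZNF92 118 against 187 in the control, ratios of -1.32 and -1.08. With HA-G9a, ZNF92 read 142, a ratio of 0.62.

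Inside the ZNF91 cluster, the non-listed genes ZNF486 and ZNF493 read higher with HA-G9a, from 4.44 to 11.5 and from 9.49 to 30.6, both dim, with relative log2 ratios of 1.46 and 1.77. ZNF682 read 66.4 and 118 in CL1-5 and 24.7 and 24.1 in CL1-0.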
